A study of Mus musculus with 8 samples.

Results

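Levels of 9 genes that steroid hormones are known to induce, namely Fkbp5, Tsc22d3, Steap4, Tmprss2, Sgk1, Homer2, Ndrg1, Zbtb16 and Acsl3, were compared between the normal mouse prostate and the prostate transformed by a viral oncoprotein. Every probe set that the array annotation assigned to one of these genes alone was taken. This gave 18 probe sets for 8 genes, out of 22626 probe sets and 12393 genes in all. Acsl3, an enzyme that activates long-chain fatty acids, had 0 such probe sets and was not analysed here.

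The samples were ventral prostates of male FVB mice aged 8 weeks, 4 arrays of wild-type tissue and 4 of tissue carrying a polyoma virus middle T antigen transgene, called MT here. Middle T is a membrane-bound viral protein that recruits Src-family kinases, phosphatidylinositol 3-kinase and Shc, and its expression gives rise to prostate carcinoma. The sources used here name no promoter for the transgene and do not say that each array is a different mouse, so the p-values refer to array-to-array spread, part or all of which may be technical.

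The receptors for steroid hormones such as glucocorticoid, progesterone and mineralocorticoid wait in complexes with the chaperone Hsp90 until hormone binds, then enter the nucleus and bind closely similar DNA elements. In the prostate, androgen drives the secretory programme of luminal cells. Because the receptors share their DNA element, many genes induced by androgen in prostate cells, Fkbp5, Tsc22d3, Sgk1 and Zbtb16 among them, are induced by glucocorticoid in other tissues.

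All levels are log2 values, so a difference of 1 is a 2-fold change. Every difference is MT minus wild type, and means carry the SD over n = 4 arrays. Differences carry the standard error of a limma fit over all 22626 probe sets, with p-values adjusted by Benjamini-Hochberg over all of them and a threshold of 0.05. Arrays correlated at 0.992 to 0.994 within wild type, at 0.996 to 0.997 within MT and at 0.968 to 0.973 between groups. The 3' minus 5' signal of the Gapdh and Actb controls, a measure of RNA integrity, differed by -0.19 and -0.18 (two-sided exact permutation p = 0.0857 and 0.114).

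Of the 18 probe sets, 14 passed the threshold, 5 higher and 9 lower in MT, where 37.8% of all probe sets passed, 18.1% higher and 19.7% lower. Probe sets of 1 gene read transcripts of that gene on the same arrays and are not independent. The genes were therefore also counted through the probe set with the highest mean. By this count 3 of 8 genes rose (Steap4, Homer2 and Tmprss2), 2 fell (Fkbp5 and Tsc22d3) and 3 did not pass (Sgk1, Ndrg1 and Zbtb16). Of all genes, 19.3% were higher and 20.7% lower, together 40.0%. The median difference of the 8 genes was -0.01, and that of all genes was -0.01 as well. The groups did not overlap for 9 of the 18 probe sets, 7 with MT below and 2 with MT above, where 37.5% of all probe sets did not overlap (19.4% below, 18.1% above). By gene this held for 2 below and 2 above of the 8, against 20.4% and 19.7% of all genes, together 40.0%.

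**Figure D1:**
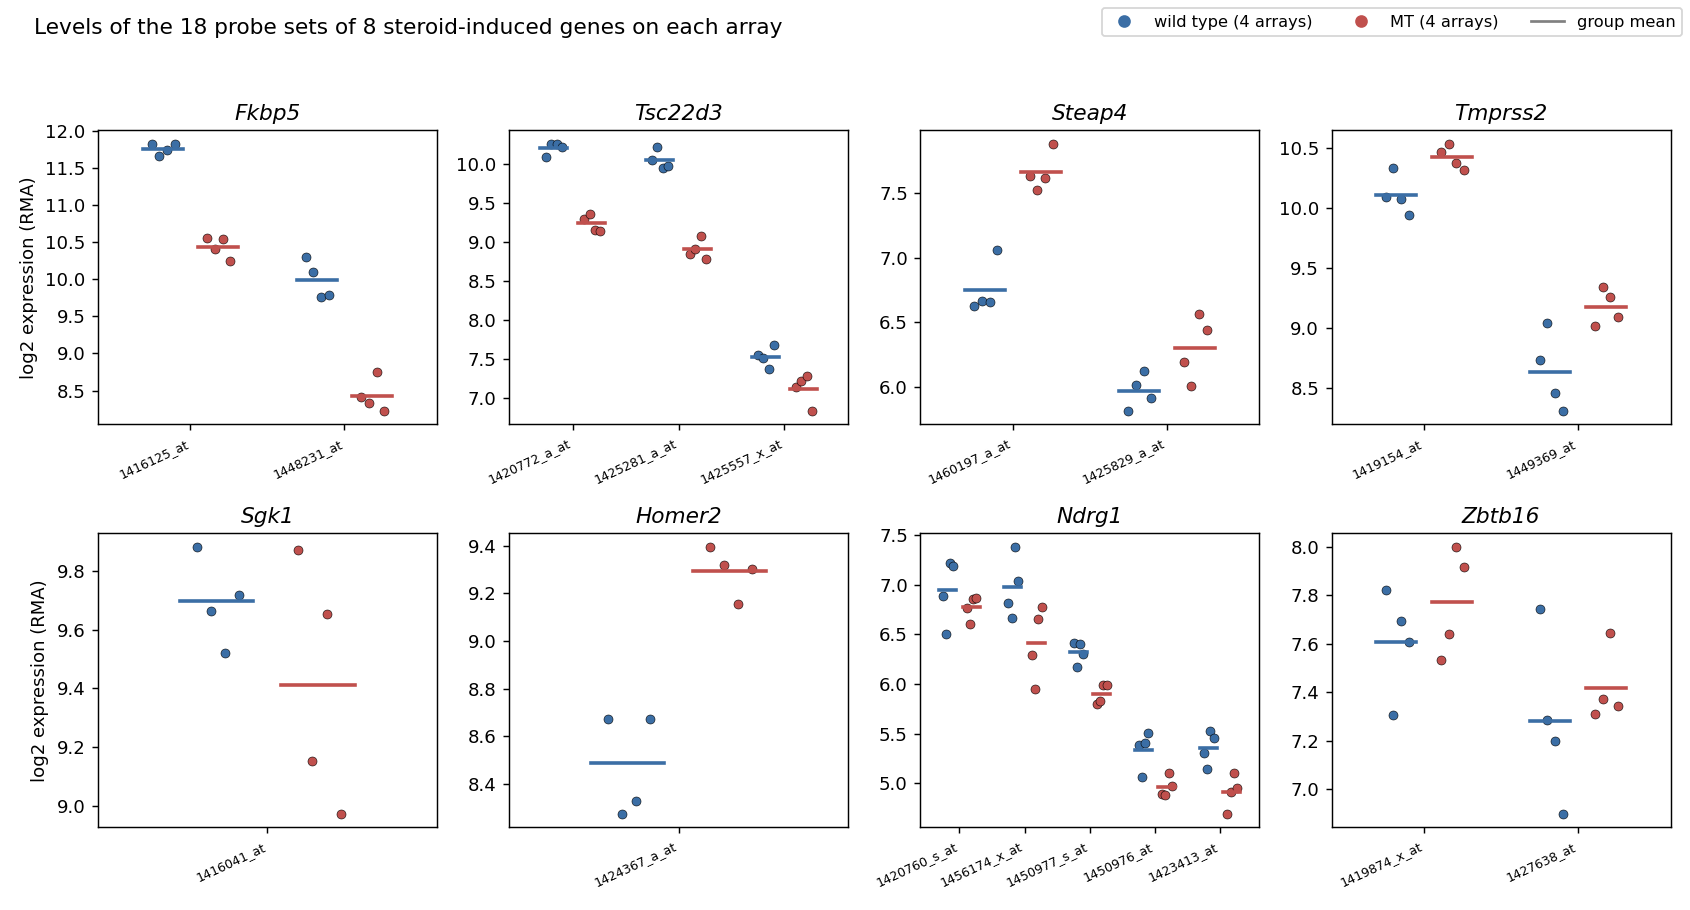
Log2 expression (RMA, vertical axis) of each of the 18 probe sets (horizontal axis) in 8 panels, 1 per gene, with blue points for the 4 wild-type arrays, red points for the 4 MT arrays and bars for group means; each panel has its own vertical scale. The groups lie apart for both probe sets of Fkbp5 and all 3 of Tsc22d3, and for Homer2 and 1 probe set of Steap4 in the other direction, while Sgk1 and Zbtb16 overlap.

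Fkbp5 encodes FKBP51, a co-chaperone in the Hsp90 complex that lowers the hormone affinity of the glucocorticoid receptor and is itself strongly induced by steroids. Its brighter probe set, 1416125_at, read 11.82, 11.66, 11.75 and 11.83 on the wild-type arrays and 10.56, 10.41, 10.55 and 10.25 on the MT arrays. Every MT value lay below every wild-type value. The mean fell from 11.76 ± 0.08 to 10.44 ± 0.14 (n = 4 each), a difference of -1.32 ± 0.08 (adjusted p = 5.48e-07) or 2.5-fold. It was the largest change among the 8 genes and number 136 in the order of falls over all 12393 genes.

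The second Fkbp5 probe set, 1448231_at, read 10.30, 10.09, 9.77 and 9.79 in wild type and 8.42, 8.33, 8.74 and 8.22 in MT. Here too the groups stood wholly apart. Its difference of -1.56 ± 0.14 (adjusted p = 7.05e-06) was close to that of the first. The gap of 0.24 between the 2 differences had a two-sided exact permutation p of 0.2. This test of probe set pairs was chosen after the data were seen.

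Tsc22d3 encodes GILZ, the glucocorticoid-induced leucine zipper protein, which restrains NF-kB and AP-1. Probe set 1420772_a_at read 10.09, 10.26, 10.26 and 10.22 in wild type and 9.30, 9.36, 9.16 and 9.14 in MT. Probe set 1425281_a_at read 10.06, 10.23, 9.95 and 9.98 against 8.85, 8.91, 9.09 and 8.79. In both, the lowest wild-type array lay well above the highest MT array. The first fell by -0.97 ± 0.07 or 1.95-fold (adjusted p = 2.37e-06), the second by -1.15 ± 0.09 or 2.21-fold (adjusted p = 1.96e-06).

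The third Tsc22d3 probe set, 1425557_x_at, is of a type that can also bind other transcripts, as its name marks with an x. It was dimmer, at 7.56, 7.52, 7.37 and 7.68 in wild type and 7.14, 7.22, 7.28 and 6.83 in MT. The groups stood apart by a small margin, and the fall was -0.41 ± 0.10 (adjusted p = 0.0087). The difference between this probe set and each of the others was tested within arrays, as 2 of 17 pairs of probe sets of 1 gene. Both gave a two-sided exact permutation p of 0.0286, the smallest that 4 against 4 arrays allow, and 0.243 after Benjamini-Hochberg adjustment over the 17 pairs. Of the 17 pairs, 0 passed after adjustment.

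Sgk1 encodes a serine/threonine kinase related to Akt that glucocorticoid and mineralocorticoid induce within a short time and that acts on ion channels and FOXO factors. Its only probe set, 1416041_at, read 9.88, 9.67, 9.52 and 9.72 in wild type. The MT arrays read 9.87, 9.15, 9.65 and 8.97, so that 2 lay among the wild-type values and 2 below them. The SD was 0.42 in MT and 0.15 in wild type. The difference of -0.29 ± 0.17 did not pass (adjusted p = 0.232), with a 95% interval from -0.67 to 0.10. Without MT array 1, the highest of its group, it was -0.44 and passed (adjusted p = 0.0483).

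Zbtb16 encodes PLZF, a zinc finger repressor and a sensitive marker of glucocorticoid action in several tissues. Probe set 1419874_x_at, which stands for the gene in the count, is also of the x type that can bind other transcripts. It read 7.82, 7.31, 7.69 and 7.61 in wild type and 7.53, 7.64, 8.00 and 7.92 in MT. Probe set 1427638_at read 7.75, 7.28, 7.20 and 6.90 against 7.31, 7.37, 7.64 and 7.34. The groups overlapped in both. They differed by 0.16 ± 0.13 (adjusted p = 0.35) and by 0.13 ± 0.15 (adjusted p = 0.535), with 95% intervals from -0.12 to 0.45 and from -0.20 to 0.47. Neither interval reaches the falls of Fkbp5 or of the brighter Tsc22d3 probe sets.

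The upstream sequences of these genes are shown because Fkbp5 and Tsc22d3 fell together while Sgk1, which is induced by the same receptors, did not pass. The 250 bases before each annotated start were taken from RefSeq (GRCm38.p6), which gave 14 windows for 6 of the 8 measured genes. Ndrg1 and Zbtb16 were not matched. Sgk1 has 6 of these windows and Tsc22d3 has 3, and of each the window with the longest match is shown. The elements searched on both strands were the full steroid receptor element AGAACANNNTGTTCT, its relaxed core GNACANNNTGTNC, which lies within it, and the half-site TGTTCT, which forms each arm of the full element. Capitals mark the elements found.
Sgk1, chr10:21993640-21993889, plus strand: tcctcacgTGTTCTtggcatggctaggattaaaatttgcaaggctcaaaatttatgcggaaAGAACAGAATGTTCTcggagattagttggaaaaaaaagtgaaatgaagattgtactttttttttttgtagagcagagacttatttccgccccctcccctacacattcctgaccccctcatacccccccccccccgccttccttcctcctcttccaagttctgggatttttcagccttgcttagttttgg
Tsc22d3, chrX:140600523-140600772, minus strand: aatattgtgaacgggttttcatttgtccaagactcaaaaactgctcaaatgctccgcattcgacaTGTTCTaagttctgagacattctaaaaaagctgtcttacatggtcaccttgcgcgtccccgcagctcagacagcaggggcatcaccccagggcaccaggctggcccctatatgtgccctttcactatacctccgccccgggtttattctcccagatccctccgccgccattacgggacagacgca
Fkbp5, chr17:28486150-28486399, minus strand: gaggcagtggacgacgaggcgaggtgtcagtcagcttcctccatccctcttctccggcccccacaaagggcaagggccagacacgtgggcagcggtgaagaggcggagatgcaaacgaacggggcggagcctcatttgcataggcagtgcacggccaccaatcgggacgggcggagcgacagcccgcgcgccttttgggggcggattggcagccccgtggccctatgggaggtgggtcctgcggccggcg

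The full element is in 1 of the 6 Sgk1 windows, the one shown, as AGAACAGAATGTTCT from 189 to 175 bases before the start, with a further half-site from 242 to 237 bases before it. Of the other Sgk1 windows, 2 have a half-site and 3 have none of the motifs. Of 32851 windows in the table, 3 hold the full element, which is 0.00913%, and 127 hold the relaxed core (0.387%). The Tsc22d3 window shown has a half-site from 185 to 180 bases before the start, and its other 2 windows have none of the motifs. The half-site was found in 16.1% of all windows and in 4 of the 14 windows of these genes. The single Fkbp5 window has none of the 3 motifs. A match is a description of the letters, and says nothing on binding in this tissue; elements outside these windows were not searched.

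Tmprss2, Steap4, Homer2 and Ndrg1 are among the known androgen-induced genes of prostate epithelium. Tmprss2, a transmembrane serine protease of luminal cells, was read by probe set 1419154_at at 10.09, 10.33, 10.07 and 9.94 in wild type and 10.46, 10.53, 10.37 and 10.31 in MT. The highest wild-type array reached just above the lowest MT array. The rise was 0.31 ± 0.09 (adjusted p = 0.0178), a 1.24-fold change. The call was lost without MT array 2 (0.27, adjusted p = 0.0568).

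The other Tmprss2 probe set, 1449369_at, read 8.74, 9.04, 8.46 and 8.31 in wild type and 9.01, 9.34, 9.26 and 9.09 in MT, with wild-type array 2 again inside the MT range. Its rise was 0.54 ± 0.14 (adjusted p = 0.0112). A fit was also made to the 6 arrays other than wild-type 4 and MT 2, which an earlier analysis had doubted. In it neither Tmprss2 probe set passed, at 0.22 (adjusted p = 0.123) and 0.38 (adjusted p = 0.074). In both probe sets wild-type array 4 was the lowest wild-type array and MT array 2 the highest MT array. Leaving out these 2 arrays therefore had to lower both differences, so no conclusion is drawn from the lost calls.

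Steap4 encodes a metalloreductase of the cell surface and endosomes that androgen induces in the prostate and inflammatory cytokines induce in other tissues. Probe set 1460197_a_at read 6.62, 6.67, 6.66 and 7.06 in wild type and 7.63, 7.53, 7.62 and 7.88 in MT. Wild-type array 4 stood above the other 3 of its group, and all MT arrays lay above it. The mean rose from 6.75 ± 0.21 to 7.66 ± 0.15 (n = 4 each), by 0.91 ± 0.11 (adjusted p = 6.81e-05) or 1.88-fold, and by 1.06 without wild-type array 4 and MT array 2.

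The dimmer Steap4 probe set, 1425829_a_at, read 5.81, 6.01, 6.12 and 5.91 in wild type and 6.19, 6.0, 6.56 and 6.44 in MT. The groups overlapped through MT array 2. The difference of 0.34 ± 0.12 only just passed (adjusted p = 0.0452). Leaving out any 1 array except wild-type array 3 or MT array 2 ended that call, at differences from 0.25 to 0.37 and adjusted p-values up to 0.129.

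Homer2 encodes a scaffold protein that links metabotropic glutamate receptors and calcium channels, and is a regular member of androgen-response lists. Its only probe set, 1424367_a_at, read 8.67, 8.27, 8.33 and 8.67 in wild type and 9.40, 9.32, 9.16 and 9.30 in MT. All MT arrays lay above all wild-type arrays. The mean rose from 8.49 ± 0.22 to 9.29 ± 0.10 (n = 4 each), by 0.81 ± 0.10 (adjusted p = 0.000112) or 1.75-fold. The rise was number 506 in the order of rises over all genes, and that of Steap4 number 404.

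Ndrg1 encodes a cytoplasmic protein that androgen, hypoxia and cell differentiation induce. Its brightest probe set by mean, 1420760_s_at, read 6.89, 6.5, 7.22 and 7.19 in wild type and 6.77, 6.60, 6.86 and 6.86 in MT. The groups overlapped, since wild-type array 2 was the lowest of all 8. The difference was -0.18 ± 0.14 (adjusted p = 0.373), and without wild-type array 2 it was -0.32 and passed (adjusted p = 0.0273).

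The other 4 Ndrg1 probe sets all fell. Probe set 1450977_s_at read 6.41, 6.17, 6.40 and 6.30 in wild type and 5.80, 5.83, 5.99 and 5.99 in MT, with no overlap (-0.42 ± 0.08, adjusted p = 0.00163). Probe set 1423413_at read 5.30, 5.14, 5.53 and 5.46 against 4.69, 4.91, 5.10 and 4.95, also apart (-0.44 ± 0.11, adjusted p = 0.00625). Probe sets 1450976_at (-0.38 ± 0.10, adjusted p = 0.00988) and 1456174_x_at (-0.56 ± 0.19, adjusted p = 0.0374) overlapped between groups. Probe set 1456174_x_at is again of the x type that can bind other transcripts. The call of 1456174_x_at was lost without wild-type array 3, wild-type array 4, MT array 1 or MT array 2, at differences from -0.54 to -0.40. The same fit to 6 arrays ended the call of 1450976_at (-0.29, adjusted p = 0.0733).

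Averaged over its 5 probe sets, Ndrg1 was lower by -0.39 ± 0.11 and passed (adjusted p = 0.0138), so the probe set chosen to stand for the gene decided its call. Such splits are common on this array: of 4956 genes with several probe sets, 1996, or 40.3%, had some that passed and some that did not. The lowest value of any of the 18 probe sets was 4.69. Bacterial control probe sets, of which there are 27, ranged from 2.57 to 3.90 for 25 of them and from 3.99 to 5.86 for the other 2, so the dimmest Ndrg1 probe sets lay above most but not all controls.

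**Figure D2:**
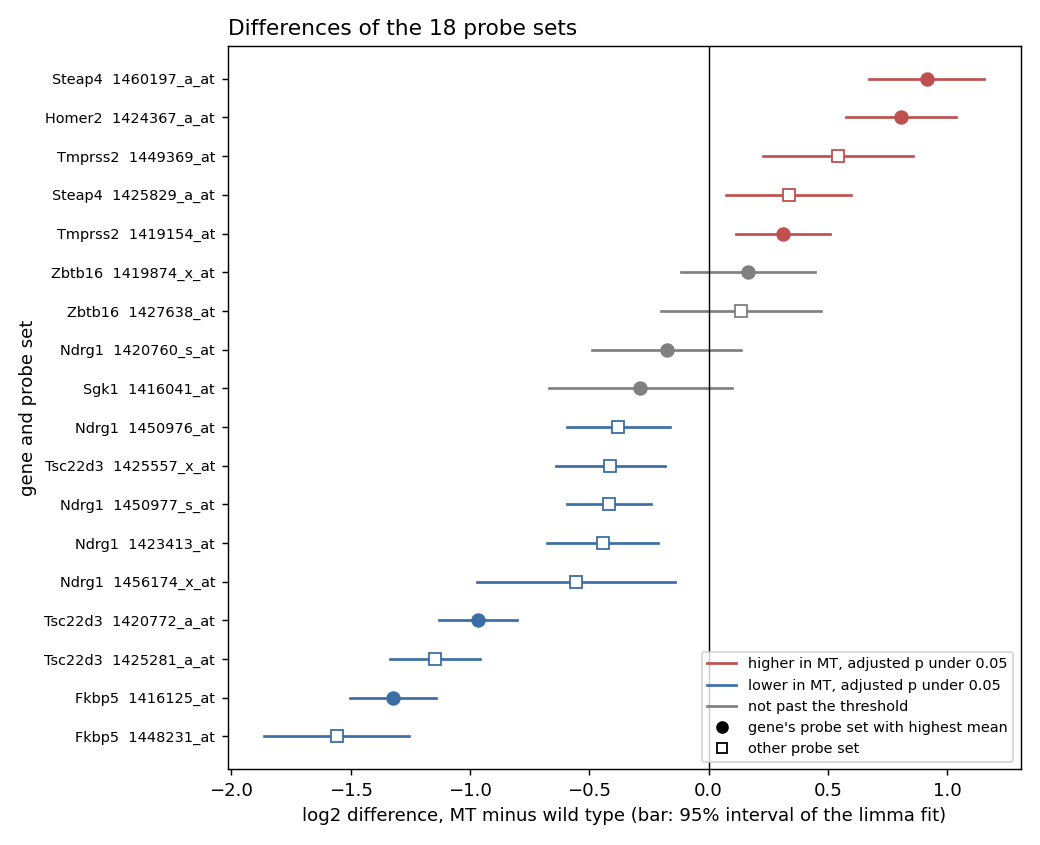
Log2 difference of each of the 18 probe sets, MT minus wild type (horizontal axis), with the 95% interval of the limma fit as a bar; filled circles are the probe set that stands for the gene and open squares its other probe sets, ordered by size. Both Fkbp5 and 2 of 3 Tsc22d3 probe sets lie lowest, down to -1.56, the brighter Steap4 probe set (0.91) and Homer2 (0.81) lie highest, and the bars of Zbtb16, Sgk1 and the brightest Ndrg1 probe set cross 0.

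Hypoxia-induced genes were counted beside Ndrg1, since oxygen shortage is its other well-known inducer. Of 13 measured, 4 rose and 3 fell, beside 19.3% higher and 20.7% lower over all genes, with a median of 0.10 against -0.01. Egln3 and Slc16a3, an oxygen-sensing hydroxylase and a lactate exporter, rose by 1.34 ± 0.09 (adjusted p = 1.20e-06) and 1.19 ± 0.13 (adjusted p = 3.09e-05). Pdk1, which holds back pyruvate oxidation, rose by 0.40 ± 0.08 (second probe set 0.31, adjusted p = 0.0684), and Bnip3, a mitophagy receptor, by 0.36 ± 0.08. Egln1, another oxygen-sensing hydroxylase (-0.55 ± 0.07), and Adm, the precursor of adrenomedullin (-0.45 ± 0.11), fell. Egln3 and Slc16a3 in wild type (5.26 and 5.08) and Adm in both groups (4.94 and 4.49) lay within the upper range of the controls. The second probe set of Egln1 differed by -0.09 and did not pass (adjusted p = 0.359).

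Among steroid receptors and the proteins that serve them, 9 of 22 measured genes rose and 4 fell, beside 19.3% higher and 20.7% lower over all genes, with a median of 0.21. Nr3c1, the glucocorticoid receptor, read 7.80, 7.55, 7.55 and 7.74 in wild type and 7.17, 7.08, 7.20 and 7.28 in MT. All MT arrays lay below all wild-type arrays, a fall of -0.48 ± 0.08 (adjusted p = 0.000631). Its other probe sets differed by -1.07 ± 0.15 (1460303_at, adjusted p = 0.000243) and -0.28 ± 0.12 (1421866_at, adjusted p = 0.0969). Pgr, the progesterone receptor, lay within the range of the controls at 3.69 ± 0.12 and 3.83 ± 0.11 (difference 0.14, adjusted p = 0.212).

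Of the 5 chaperones and co-chaperones measured, Dnaja1 and Hsp90aa1 rose, Bag1 fell, and Fkbp4 and Stip1 did not pass. Hsp90aa1 itself was at 0.54 ± 0.16 (adjusted p = 0.0199) with overlapping groups, and is named after its value was seen. Dnaja1, an Hsp40 co-chaperone, rose by 0.77 ± 0.16 (adjusted p = 0.00233), although its second probe set did not pass (0.17, adjusted p = 0.438). Bag1, a nucleotide exchange factor of Hsp70, fell by -0.53 ± 0.08 (adjusted p = 0.000445). Of the coregulators, Ncoa3 rose by 0.62 ± 0.07 (adjusted p = 3.48e-05), and Daxx, a histone chaperone and corepressor, by 0.76 ± 0.06 (adjusted p = 3.22e-06). Foxa1, the pioneer factor that opens chromatin for steroid receptors, rose by 0.42 ± 0.08 (adjusted p = 0.00143) from 11.32 ± 0.13. Tgfb1i1, a coactivator also known as Hic-5 and abundant in smooth muscle, fell by -0.45 ± 0.11 (adjusted p = 0.00631). Ncoa4, a coactivator that also carries ferritin to the lysosome, fell from 11.44 ± 0.21 to 10.70 ± 0.11 (-0.74 ± 0.10, adjusted p = 0.000193).

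Of 18 measured genes that serve to make, activate or inactivate steroids, most of them enzymes, 2 rose and 4 fell, with a median of -0.03. Over all genes, 19.3% were higher and 20.7% lower. H6pd, which supplies NADPH in the endoplasmic reticulum to the enzyme that regenerates active glucocorticoid, read 7.37, 7.18, 7.09 and 7.27 in wild type and 8.40, 8.42, 8.46 and 8.40 in MT. It was the largest change of the list, at 1.19 ± 0.07 (adjusted p = 4.61e-07), with groups far apart. Hsd11b1, that enzyme itself, was -0.54 lower (adjusted p = 0.0213) with overlapping groups, and is named after its value was seen. Hsd17b12 rose by 0.33 ± 0.07 (adjusted p = 0.0037). The fall of Hsd3b7 was -0.54 ± 0.08 (adjusted p = 0.00029) and that of Hsd17b11 -0.45 ± 0.10 (adjusted p = 0.00504), although the other Hsd17b11 probe set did not pass (-0.18, adjusted p = 0.311). Hsd17b4 also passed (-0.24 ± 0.08, adjusted p = 0.0336), but leaving out 1 array ended that call for 7 of 8 arrays. The count of falls was 2 without wild-type array 4 and 2 without MT array 2.

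Other androgen-induced genes of the prostate were lower more often than higher, with 19 of 42 measured genes lower and 6 higher and a median of -0.24, beside 20.7% lower and 19.3% higher over all genes. The secretory products led. Pbsn, probasin, read 13.70, 12.83, 13.12 and 13.45 in wild type and 9.87, 8.34, 8.81 and 9.46 in MT, a fall of -4.16 ± 0.29 (adjusted p = 1.28e-06). Azgp1, a secreted zinc-binding glycoprotein, fell by -2.75 ± 0.10 (adjusted p = 1.59e-08). Msmb, beta-microseminoprotein, fell by -2.09 ± 0.37 (adjusted p = 0.000942), with MT arrays from 10.44 to 12.44, and Hpgd, which breaks down prostaglandins, by -2.02 ± 0.19 (adjusted p = 9.84e-06). The falls of Fkbp5 and Tsc22d3 were smaller than these.

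On the other side of the androgen list, Elovl7, a fatty acid elongase, rose by 1.49 ± 0.09 (adjusted p = 5.17e-07), more than Steap4 or Homer2. Sat1, which acetylates polyamines, rose by 0.48 ± 0.09 (adjusted p = 0.00119) and the lipase Abhd2 by 0.41 ± 0.09 (adjusted p = 0.00376). Pdlim5, a cytoskeletal adaptor, rose by 0.42 ± 0.11 (adjusted p = 0.0126), while 4 of its other 6 probe sets did not pass. Of the 42 androgen-induced genes, 19 were thus lower and 6 higher, beside 20.7% lower and 19.3% higher over all genes. Of the 8 genes, 2 were lower and 3 higher.

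Of 32 other glucocorticoid-induced genes measured, 8 were higher and 9 lower, beside 19.3% higher and 20.7% lower over all genes, with a median of 0.02. The metallothioneins Mt2 and Mt1, which bind zinc and copper, fell by -1.84 ± 0.10 (adjusted p = 2.43e-07) and -1.35 ± 0.09 (adjusted p = 7.19e-07). Klf15, a transcription factor of glucocorticoid-driven metabolism, read 8.90, 8.70, 8.80 and 8.85 in wild type and 7.41, 7.21, 7.13 and 6.97 in MT, a fall of -1.63 ± 0.09 (adjusted p = 3.20e-07). Lpin1, a phosphatidate phosphatase, fell by -0.83 ± 0.08 (adjusted p = 1.16e-05). Fkbp5 and Tsc22d3 lay within the range of these falls.

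Cebpd, a transcription factor of the acute phase and a glucocorticoid-induced gene, rose by 1.25 ± 0.18 (adjusted p = 0.000248), with a second probe set that did not pass (0.04, adjusted p = 0.624). Nfkbia, the inhibitor of NF-kB and itself an NF-kB target, rose by 1.04 ± 0.08 (adjusted p = 2.17e-06), and its 3 other probe sets rose as well. Foxo3 rose by 0.89 ± 0.09 (adjusted p = 1.45e-05), with 1 of its other 2 probe sets not passing, and the small GTPase Rhob by 0.77 ± 0.11 (adjusted p = 0.00021).

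**Figure D3:**
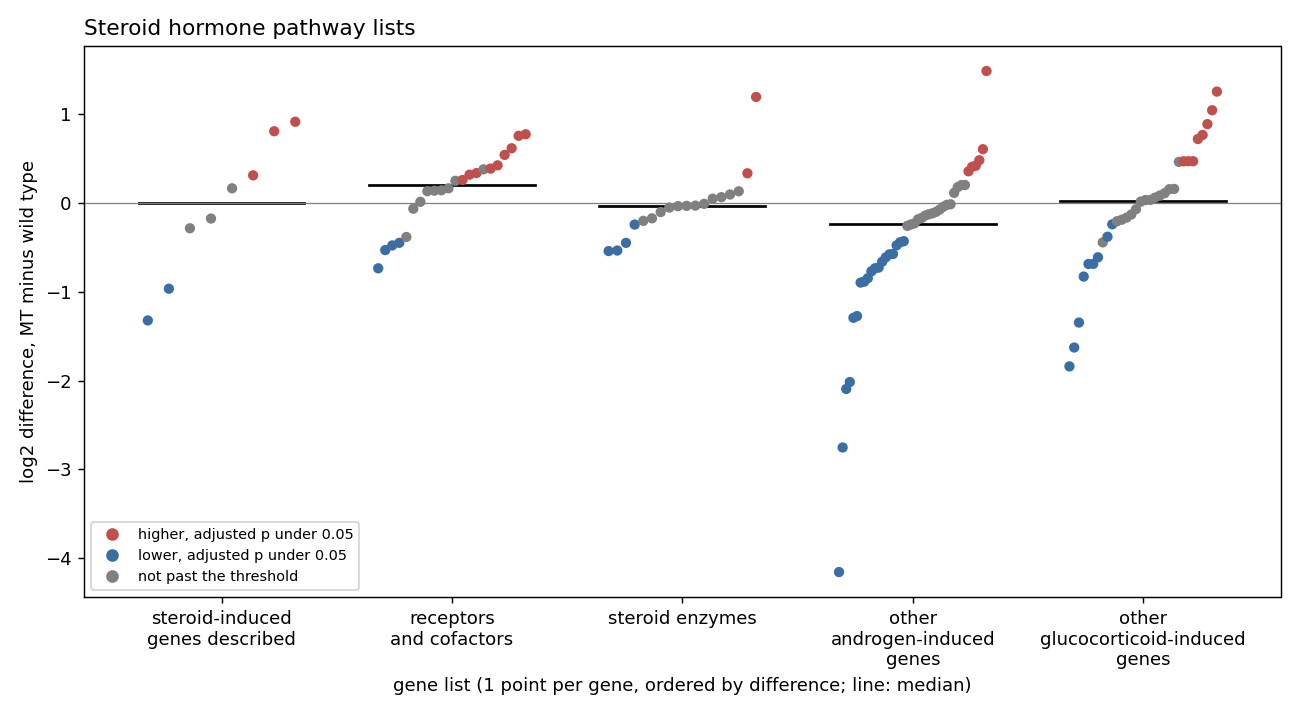
Log2 difference, MT minus wild type (vertical axis), of each measured gene in 5 lists (horizontal axis), 1 point per gene ordered by its difference, coloured by whether it passed the threshold and in which direction, with the list's median as a line. The 8 steroid-induced genes spread from -1.32 to 0.91 around a median of -0.01, the other androgen-induced genes reach down to -4.16, and the other glucocorticoid-induced genes spread to both sides of 0.

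The genes with the most similar profile over the 8 arrays were sought for each of the 5 genes that passed, by the root mean square difference of log2 values after each profile was centred on its mean. Nearest to Fkbp5 were Rcn2 (0.0661) and Spcs3 (0.0834), which fell by -1.38 and -1.31. Nearest to Tsc22d3 were Cog6 (0.053) and Tram1 (0.0583), and nearest to Steap4 were Dbndd2 (0.101) and Emb (0.101). Homer2 lay nearest to Efhd2 (0.0641) and Fam3c (0.0802), and Tmprss2 to Bzw1 (0.0515) and Xpo6 (0.0574). Wild-type 4 was the lowest wild-type array and MT 2 the highest MT array for both Bzw1 and Xpo6. Without these 2 arrays, Bzw1 (0.23, adjusted p = 0.0759) and Xpo6 (0.20, adjusted p = 0.099) did not pass. On all arrays, 2 of the other 4 Bzw1 probe sets did not pass. These genes were picked for their likeness over the same arrays, so their direction is given by the choice. Fkbp5 and Tsc22d3 were not nearest to each other, nor were Steap4, Homer2 and Tmprss2. This measure counts the size of a difference as well as its pattern. Fkbp5 and Tsc22d3 (-1.32 and -0.97) differ in size, as does Tmprss2 (0.31) from Steap4 and Homer2 (0.91 and 0.81). No conclusion on shared regulation is drawn from it.

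These are whole lobes, and the levels of several cell type marker lists differed between the groups. The shares over all genes, for each count here, were 19.3% higher and 20.7% lower. Fewer cells of a type and less RNA per cell cannot be told apart here. Luminal epithelial markers were higher for 11 of 11 genes, led by Elf3 (1.76 ± 0.08) and Cldn4 (1.26 ± 0.20). Their mean log2 level ran from 10.46 to 10.63 on the wild-type arrays and from 11.38 to 11.53 on the MT arrays. The secretory genes Pbsn (-4.16), Azgp1 (-2.75) and Msmb (-2.09), which are not in this list, were lower. Smooth muscle markers were lower for 11 of 11 (8.93 to 9.59 against 7.93 to 8.72), with Myl9 (-1.24 ± 0.24) and Actg2 (-1.23 ± 0.29) furthest down. Fibroblast markers were lower for 9 of 11 (8.07 to 8.73 against 7.31 to 7.80), among them Dpt (-2.11 ± 0.17) and Dcn (-1.28 ± 0.09). The labelled tissue carried markers of epithelium and stroma. On the lowest array of each, Krt8 read 11.44, Epcam 11.57, Acta2 10.71 and Col3a1 9.67, all above the bacterial controls. The lowest arrays of Synpo2 (4.8), Lmod1 (5.55), Thy1 (5.26) and Lum (5.67) fell within the controls' range. So did those of the basal markers Trp63 (4.47), Col17a1 (4.35) and Krt17 (3.73).

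Basal markers were lower for 5 and higher for 1 of 9 (6.63 to 7.10 against 6.49 to 6.52), with Krt15 at -1.35 ± 0.19 and Itgb4 at 1.13 ± 0.10. Adipocyte markers were lower for 5 of 6 (5.82 to 7.95 against 5.26 to 6.18), or for 3 when MT array 1, 3 or 4 was left out. Their levels varied between arrays of 1 group: Adipoq read 5.21, 7.26, 8.10 and 9.39 in wild type and 4.60, 6.70, 4.50 and 4.22 in MT. Wild-type array 4 and MT array 2 carried the most Adipoq in their groups. In the fit to the other 6 arrays Fkbp5 was -1.29 and Tsc22d3 -1.0, against -1.32 and -0.97 with all arrays. On those 6 arrays Adipoq still read 5.21, 7.26 and 8.10 in wild type and 4.60, 4.50 and 4.22 in MT. That fit therefore did not remove the adipocyte difference between the groups, and its part in these falls was not tested.

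Leukocyte markers were higher in part. Macrophage markers were higher for 7 of 12 and lower for 1 (6.58 to 7.17 against 7.32 to 7.50), with 0 lower when wild-type array 3, MT array 1 or MT array 4 was left out, and with Ctss at 2.40 ± 0.18 and Cd14 at 1.30 ± 0.09. Granulocyte markers were higher for 3 of 8 (4.56 to 4.67 against 5.29 to 5.66), with S100a8 at 7.47 ± 0.32 and S100a9 at 6.40 ± 0.39 in MT, while their wild-type means of 4.15 and 3.69 lay within the range of the bacterial controls. T cell markers were higher for 3 of 7 (4.81 to 4.86 against 5.01 to 5.16), Cd3g and Cd4 among them. The means of Cd3g (3.70 in wild type and 4.46 ± 0.52 in MT) lay within the range of the controls in both groups. So did those of Cd4 (5.38 in wild type and 5.66 in MT). Cd4 rose by 0.28 ± 0.07, but its other probe set differed by -0.02 (adjusted p = 0.87), and the mean over both did not pass (0.13, adjusted p = 0.0613). Markers of B and plasma cells were higher for 1 of 6 (4.95 to 5.22 against 5.64 to 6.41), Jchain, at 4.85 ± 0.61 in wild type, within the controls' range, and 7.82 ± 0.26 in MT. That count was 4 without MT array 2 and 2 without wild-type array 3, MT array 1 or MT array 4. On MT array 2, Cd79a (6.40), Cd79b (6.85) and Ms4a1 (6.36) lay above every other MT array, while Ighm and Pax5 were lowest there. Endothelial markers were lower for 2 of 10 (5.15 to 5.44 against 5.15 to 5.26), Tek (-0.50 ± 0.12) and Cldn5 (-0.37 ± 0.07), a count near the share of all genes. Tek (4.82 in wild type and 4.32 in MT) and Cldn5 (5.72 and 5.35) also lay within the controls' range in both groups. Proliferation markers were higher for 10 of 12 (5.48 to 5.82 against 6.92 to 7.05). The part of these shifts in the differences of the 8 steroid-induced genes was not tested.

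**Figure D4:**
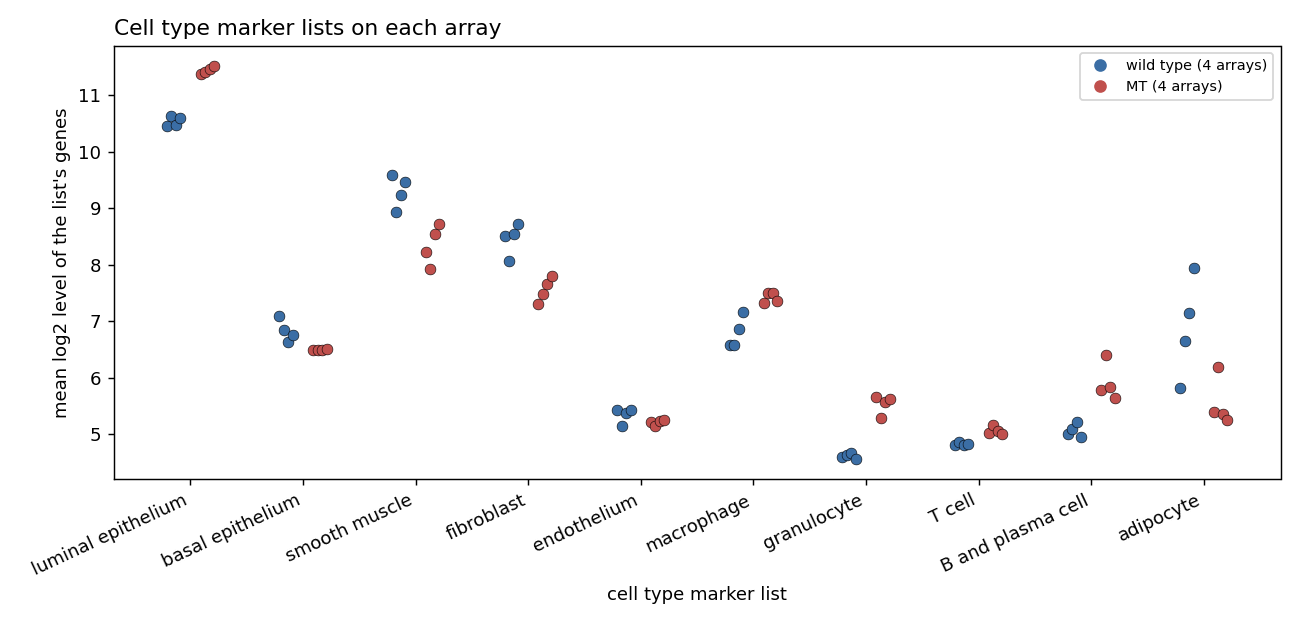
Mean log2 level of the genes of each cell type list (vertical axis) on each array, for 10 lists (horizontal axis), with blue points for the 4 wild-type and red points for the 4 MT arrays. Luminal markers lie higher and smooth muscle and fibroblast markers lower on all 4 MT arrays, and the adipocyte list spreads most between arrays of 1 group, from 5.82 to 7.95 in wild type.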

How the data were processed

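Values were deposited on a log2 scale after RMA, per the submitters' processing notes, which name no version. RMA corrects background, normalizes by quantiles and summarises each probe set, so a global shift in RNA content would not show. The table held 22690 probe sets, of which 64 controls were left out. The platform annotation gave 20380 probe sets 1 gene symbol, 691 several and 1555 others none, and a gene was counted through its probe set with the highest mean.

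limma 3.58.1 (lmFit, eBayes, default prior) in R 4.3.3 was fitted to all 22626 probe sets on 8 arrays without covariate; tests were two-sided. In 10 simulated sets of 22626 probe sets for MT minus wild type, with 200 changed in each, the fit recovered 70.3% of changes of 0.5 and 96.9% of changes of 1. In the data 37.8% of probe sets passed, a far larger share than was changed in the simulation. The Benjamini-Hochberg cutoff depends on that share, so these recoveries need not hold for the data. For arrays, their number limits the precision. Tables were handled in Python 3.11.15 with pandas 2.3.3, and figures drawn with matplotlib 3.10.9.

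The genes and lists were chosen with earlier results of these data known. Genes were named by rule: every probe set of the 8 genes, up to 4 rises and 4 falls per pathway list among genes that passed without overlap, up to 2 per cell type list, the receptor genes (Nr3c1, Pgr), and the 2 nearest profiles. Alternatives were another prior, array weights, other probe set rules, a level filter, renewed scaling, the replicate number as a block and arrays left out.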

Additional observations from a re-analysis of the deposited data

Results flagged for a closer look

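Single arrays stood apart within their group of 4 for 11 of the 166 groups of values examined, by the gap to the nearest array against the group's range. Chance alone gives about 1 in 20. Among the 8 steroid-induced genes this happened once: Steap4 probe set 1460197_a_at read 7.06 on wild-type array 4, with the other wild-type arrays from 6.62 to 6.67. Its rise was larger without that array and MT array 2 (1.06 against 0.91).

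On MT array 2 the adipocyte genes Adipoq (6.70, others 4.22 to 4.60) and Fabp4 (8.23, others 6.63 to 6.90) were high, and S100a8 was low (6.99, others 7.59 to 7.70). Cd4 was low on MT array 1 (5.59, others 5.68 to 5.69) and Hsd17b12 on MT array 3 (9.10, others 9.26 to 9.29). Wild-type array 3 was high for Foxo3 (8.72, others 8.44 to 8.46) and Lpin1 (8.72, others 8.45 to 8.47). Hsd3b7 (8.21, others 8.41 to 8.43) and Ncoa3 (6.48, others 6.64 to 6.67) were low on wild-type array 1, and Dcn on wild-type array 2 (11.49, others 11.78 to 11.81).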

How the results depend on the processing

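Over 18 alternatives, 264 of 282 values of the 18 probe sets kept direction and side of the threshold, 16 no longer passed, 2 newly passed and 0 reversed; probe sets of Fkbp5, Tsc22d3 and Homer2 and the brighter one of Steap4 passed in every alternative that held them (15 to 17 each). With array weights the dimmer Steap4 probe set missed (0.36, adjusted p = 0.0502). In the fit to 6 arrays, wild-type 4 and MT 2 left out, 3 probe sets were higher instead of 5. Tmprss2 gave 0.22 and 0.38, where the arrays left out were its lowest wild-type and highest MT array. Ndrg1 1450976_at and 1456174_x_at gave -0.29 and -0.38. None of these passed the threshold. Lower steroid enzymes numbered 2, higher endothelial genes 1 and higher B and plasma cell genes 4. With 1 array left out, the ranges were -0.44 to -0.14 for Sgk1, 0.25 to 0.39 for Tmprss2 1419154_at, -0.324 to -0.087 for Ndrg1 1420760_s_at, -0.68 to -0.40 for Ndrg1 1456174_x_at and 0.25 to 0.43 for Steap4 1425829_a_at. Counts then ran from 2 to 4 lower steroid enzymes, 0 to 1 higher endothelial, 0 to 1 lower macrophage, 1 to 4 higher B and plasma cell and 3 to 6 lower adipocyte genes. The cause was not tested.

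Probe sets with no letter between number and _at in their names, which are fewer, gave 2499 higher and 2903 lower (4089 and 4463 over all). They gave 0 higher basal genes and 1 higher steroid-induced gene, since Steap4, Homer2 and Tsc22d3 have none of this type. The Steap4 and Homer2 probe sets carry an a in their names and were left out by that rule alone. The filter at the median level, which tests fewer probe sets, left 3 lower basal, 0 lower endothelial, 0 higher granulocyte, 1 higher T cell, 3 lower adipocyte, 5 higher proliferation and 2 higher hypoxia genes. Averaged over probe sets, 2 B and plasma cell genes were higher.

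Arrays with the same title number had deviations correlated at 0.0782 to 0.164 over probe sets (0.104 to 0.184 with 1 probe set per gene), and 8 of 8 correlated best with their own number, a hint from the data and not the design. With the number as a replicate block, 4110 probe sets were higher and 4523 lower, 5 and 9 of the 18 as before; 1 endothelial and 2 B and plasma cell genes were higher.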
